A study of Mus musculus with 18 samples.

Results

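The RNAs described here are 10 long noncoding genes that act in the nucleus or are the precursors of small RNAs: Malat1, Neat1, the snoRNA host genes Gas5, Snhg1, Snhg3, Snhg5, Snhg6, Snhg8 and Snhg12, and the miRNA host gene Mir17hg. They were chosen by name, and their rows were looked up by mouse symbol in the deposited table of nascent RNA counts. That table lists 54232 genes, of which 30157 had at least 1 count. Of the 10 genes, 6 had a row and 5 had counts. Snhg3 was listed at 0 in all 18 libraries. No row was matched to Snhg1, Snhg5, Snhg6 or Snhg8, which were not analysed here.

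Fetal livers of C57BL/6 mouse embryos at e12.5-e13.5 were sorted into 6 populations with 3 libraries each. Lineage-negative (Lin-) cells were divided by surface levels of Ter119, which appears as red cells mature, and of CD71, through which cells take up transferrin-bound iron, into S0-Low (CD71-, Ter119-), S0-Medium (CD71 medium, Ter119-), S1 (CD71 high, Ter119-), S2 (CD71 high, Ter119 medium) and S3 (CD71 high, Ter119 high), an order that runs from stem cells and early progenitors to maturing erythroblasts. Lin+ cells were sequenced beside them and carry the same cell type label, primary erythroblasts. All populations rested for 6 h in erythroid medium and then took up 500 µM 4-thiouridine (4sU) for 45 min, so the reads come from RNA made during or shortly before the pulse, purified through the thiol group. The study calls the libraries biological replicates, but no label says which share a litter or a sort, and p-values measure the spread between these libraries, which may in part be technical. In bulk samples, fewer cells of a type and less RNA per cell cannot be told apart.

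Each library held between 9452476 and 40567976 counts, and the shallowest was replicate 3 of S0-Low. The sorted populations carried their markers. The summed normalized count of 8 late erythroid genes was between 18072 and 40161 in S0-Low and between 916583 and 1570810 in S3, and that of 8 progenitor genes was between 56286 and 81812 in S0-Low and between 907 and 952 in S3. Neutrophil genes summed to between 105608 and 190026 in Lin+, against 10508 to 24861 in S0-Low and 1.84 to 77.9 in S3, which does not match the erythroblast label of the Lin+ cells. Normalized counts are counts scaled to the same effective library size with TMM factors.

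Malat1 is a long, unspliced RNA that gathers in nuclear speckles, the bodies where splicing factors are stored. Neat1 is the scaffold on which paraspeckles assemble with proteins such as NONO and SFPQ, and it lies next to Malat1. Gas5 and the Snhg genes are spliced RNAs whose introns release small nucleolar RNAs (snoRNAs), the guides for chemical modification of ribosomal RNA; many of the host RNAs start at a stretch of pyrimidines, as the transcripts of ribosomal proteins do, and are degraded by nonsense-mediated decay after splicing. Mir17hg is the primary transcript of the miR-17-92 cluster, a group of miRNAs known for promoting the growth of blood cell precursors.

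In GRCm38 coordinates of RefSeq, Malat1 lies at chr19:5795690-5802672 on the minus strand and Neat1 at chr19:5824708-5845480. Gas5 lies at chr1:161034601-161038539, Snhg12 at chr4:132308678-132311024 and Mir17hg at chr14:115044390-115046728, all on the plus strand. Each of the 5 is annotated as a lncRNA. Reads were assigned to these genes as whole transcripts, and the setting for strand is not given in the sources used here. In an older GENCODE annotation Gas5 overlaps Zbtb37 on the opposite strand, and Malat1 overlaps Gm20417, whose 2025 counts over all libraries compare with 1758651 for Malat1.

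The miRNAs of the miR-17-92 cluster are shown because Mir17hg is named for them. The older GENCODE model of Mir17hg holds all 6, whereas the RefSeq interval given above begins within the cluster and holds only miR-92a-3p, with the other 5 just upstream of its start. The mature sequences are those of RefSeq (GRCm38.p6), written 5′ to 3′ with the seed, bases 2 to 8, in capitals.
mmu-miR-17-5p: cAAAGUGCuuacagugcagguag
mmu-miR-20a-5p: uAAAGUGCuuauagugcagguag
mmu-miR-18a-5p: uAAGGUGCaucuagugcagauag
mmu-miR-19a-3p: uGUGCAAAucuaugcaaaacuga
mmu-miR-19b-3p: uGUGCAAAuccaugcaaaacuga
mmu-miR-92a-3p: uAUUGCACuugucccggccug
miR-17-5p and miR-20a-5p share the seed AAAGUGC, which 7 of 1679 mature mouse miRNA names in the RefSeq table carry. miR-19a-3p and miR-19b-3p share GUGCAAA, which belongs to them alone in that table. miR-18a-5p (AAGGUGC) and miR-92a-3p (AUUGCAC) each have a seed of their own within the cluster. The mature miRNAs were not measured.

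The starts of Gas5 and Snhg12 are shown against that of Malat1 because the hosts are known for pyrimidine-rich starts, while Malat1 is the member with the highest counts. Each window is 300 bases of RefSeq promoter sequence (GRCm38.p6), 250 before to 50 after the annotated start, 5′ to 3′ on the strand of the gene. Capitals mark the longest unbroken run of C and T that touches the 20 bases on either side of the start.
Gas5, chr1:161034916-161035215 (+): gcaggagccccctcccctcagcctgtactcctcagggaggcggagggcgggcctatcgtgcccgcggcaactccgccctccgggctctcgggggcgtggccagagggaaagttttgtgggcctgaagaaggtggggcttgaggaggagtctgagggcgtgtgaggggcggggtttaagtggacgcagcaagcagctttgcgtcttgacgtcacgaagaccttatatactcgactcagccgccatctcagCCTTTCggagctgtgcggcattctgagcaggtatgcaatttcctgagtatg
Snhg12, chr4:132308428-132308727 (+): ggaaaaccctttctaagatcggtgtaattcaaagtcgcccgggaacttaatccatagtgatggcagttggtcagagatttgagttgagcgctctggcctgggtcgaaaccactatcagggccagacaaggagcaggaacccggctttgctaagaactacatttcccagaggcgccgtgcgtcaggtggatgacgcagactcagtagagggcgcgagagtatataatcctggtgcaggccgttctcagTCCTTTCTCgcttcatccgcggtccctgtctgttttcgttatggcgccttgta
Malat1, chr19:5802623-5802922 (-): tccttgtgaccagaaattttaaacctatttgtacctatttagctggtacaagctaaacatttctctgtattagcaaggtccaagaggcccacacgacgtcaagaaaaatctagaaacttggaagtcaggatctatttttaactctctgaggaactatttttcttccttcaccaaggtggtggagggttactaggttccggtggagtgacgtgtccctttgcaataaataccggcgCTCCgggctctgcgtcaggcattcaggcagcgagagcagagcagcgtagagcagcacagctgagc
The run of Snhg12 has 9 bases and begins 3 bases before the start. Runs of at least that length were found in 14.7% of 32851 promoter windows. At Gas5 the run has 6 bases (43.9% of windows hold one as long), and the Malat1 window has 4 (82.3%). Gas5 has another annotated start upstream (window chr1:161034351-161034650), where the longest run has 3 bases. Windows were searched on both strands for the TATA box letters TATAAA (in 13.6% of all windows), for the E-box letters CACGTG (7.15%) and for the cAMP response letters TGACGTCA (1.79%). Of these, the printed windows held the last, at Gas5, and no other. These are matches of letters and not measured sites.

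Malat1 rose at the last erythroid step. Its normalized counts were 51280, 34756 and 38230 in the 3 S0-Low libraries, 76132, 39237 and 34045 in S0-Medium, and 70946, 61439 and 39882 in S1. S2 held 74699, 62511 and 111016, and S3 held 478538, 454130 and 576946. All S3 libraries lay above every other library, and the first 4 populations overlapped their neighbours. The mean of S3 was 503205 ± 65018 (SD, n = 3), against 82742 ± 25233 in S2, 57422 ± 15917 for the S1 libraries, 49805 ± 22948 in S0-Medium and 41422 ± 8712 in S0-Low. As a share of all counts, Malat1 took 0.130% to 0.176% of the S0-Low libraries and 0.961% to 1.10% of the S3 libraries.

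Neat1 rose at the same step from a far lower level. Its normalized counts were 654, 542 and 1936 in S0-Low, 1117, 514 and 554 in S0-Medium, and 1083, 969 and 1197 in S1. In S2 they were 1680, 1457 and 3637, and in S3 they were 9623, 22314 and 34714. The S2 libraries lay above the S1 libraries without overlap, and those of S3 above all others. The normalized S0-Low value of replicate 3 stood apart, at more than those of the other S0-Low libraries put together. Its raw count of 729 lay between their 791 and 679, and it was the shallowest library. Within S3 the values spread more widely than those of Malat1, with a coefficient of variation of 56.5% against 12.9%.

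**Figure D1:**
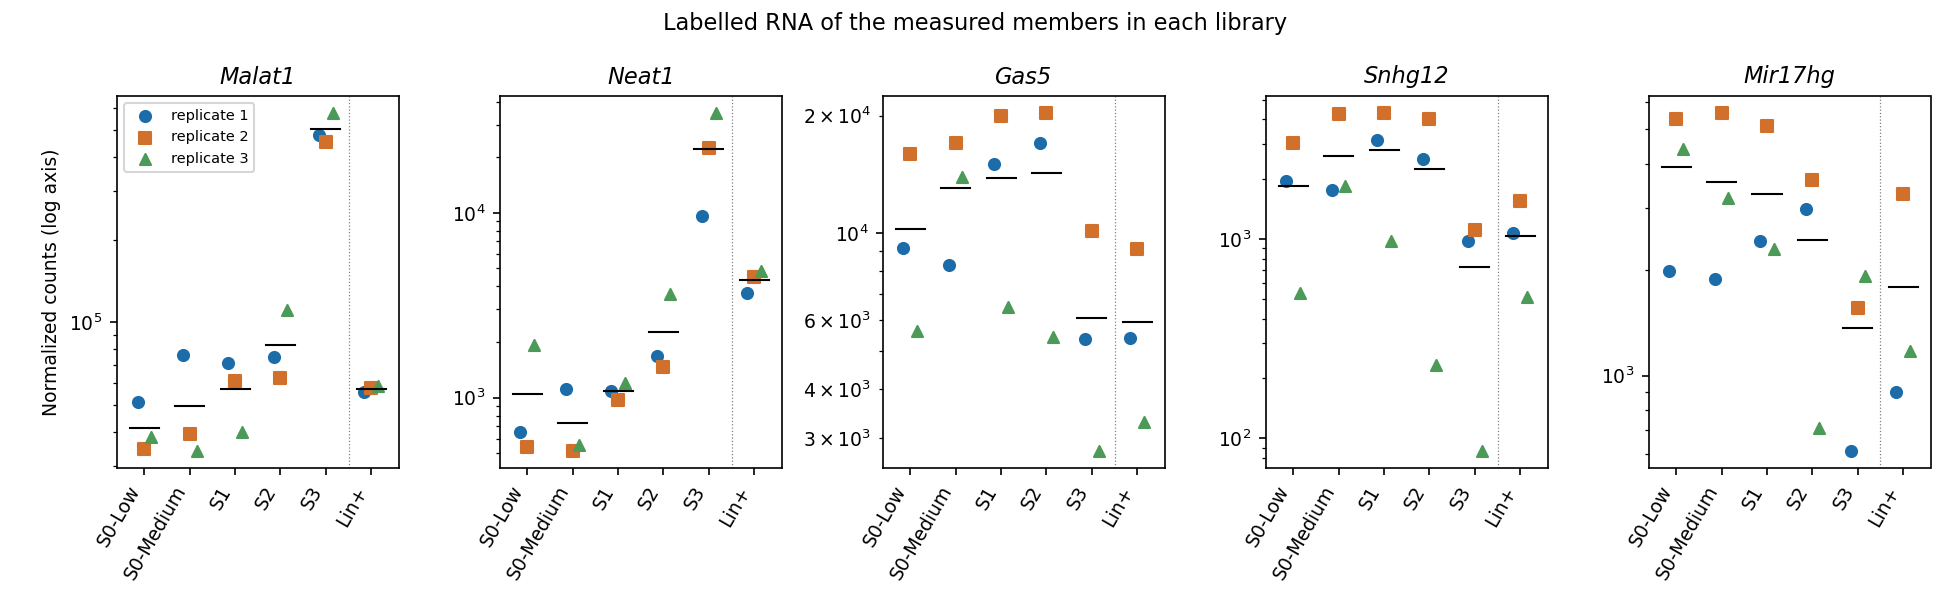
Normalized counts of the 5 measured genes in each library, on a log axis, for the erythroid populations in sort order and, right of the dotted line, Lin+. Points are single libraries, marked by replicate number, and bars are means; the S3 points of Malat1 and Neat1 lie above all others, while those of Gas5, Snhg12 and Mir17hg overlap other populations.

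Compared with S0-Low, Malat1 was 12.1-fold higher in S3 (log2 fold change 3.60, SE 0.41, edgeR adjusted p = 1.85e-05) and Neat1 was 21.3-fold higher (4.41, SE 0.62, adjusted p = 9.32e-05). Both were higher in 3 of 3 libraries of the same number. Without replicate 3 of S0-Low, where Neat1 stood apart, its log2 fold change was 5.17 (adjusted p = 0.000133). They were the 2 of 5 measured genes called at an adjusted p under 0.05 and the only ones higher, in a comparison that called 13.4% of 16555 tested genes higher and 22.4% lower (35.8% in either direction). The median of all tested genes was -0.54 in this comparison and -1.36 with scaling by library totals. Under that scaling, which gave 1156 higher and 6228 lower calls against 2220 and 3712, Malat1 stood at 2.76 and Neat1 at 3.47, and both remained called.

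The rise fell in the step from S2 to S3. Malat1 was 6.11-fold higher in S3 than in S2 (log2 fold change 2.61, SE 0.39, edgeR adjusted p = 0.00115) and Neat1 9.88-fold higher (3.31, SE 0.59, adjusted p = 0.00327). These were 2 of the 5 members, in a step that called 3.26% of tested genes higher and 6.09% lower (9.35% in either direction). With the replicate number as a block the step called 1208 genes higher and 1866 lower, against 540 and 1008 without it. With only the 6 libraries compared in the fit, the adjusted p of Malat1 was 0.0758 at a log2 fold change of 2.57, and that of Neat1 was 0.0495. In the 3 earlier steps no measured member was called by edgeR or by DESeq2, and none had an unadjusted p under 0.05. Those steps called 0% of all genes in edgeR, where at an unadjusted p under 0.05 there were 295 genes higher and 244 lower from S0-Low to S0-Medium, 278 and 857 in the next step and 166 and 501 in the step to S2. DESeq2 called 31 higher and 24 lower, 31 and 375, and 5 and 154. Libraries of the same number deviated together in these steps, and with the replicate number as a block edgeR called 22 genes higher and 1 lower, 28 and 29, and 0 and 0, no member among them. The lowest unadjusted p of a member there was 0.0687, for Neat1 in S2 against S1 (log2 fold change 1.06, SE 0.54, adjusted p = 1).

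Other quantities moved with S3. The 9 immediate early and heat shock genes followed as markers of stress summed to between 17676 and 35400 normalized counts in S3, against 2964 to 8406 in S0-Low and 4488 to 6921 in S2, and the S3 level was called higher for 4 of the 9 against S0-Low and for 3 of the 9 against S2, beside the 13.4% and 3.26% of all genes given above. Mitochondrially encoded genes took 1.53% to 2.93% of the counts in S3 and 3.95% to 4.51% in S0-Low. The part of these in the rise of Malat1 and Neat1 was not tested. Markers of macrophages, lymphoid cells and hepatocytes summed to at most 140, 10.1 and 12.1 normalized counts in the S3 libraries. Those of megakaryocytes summed to 586 to 2796 in S3, 527 to 740 in S2 and 2308 to 6849 in S0-Low, and of them Itga2b, an integrin gene, was called higher in S3 than in S2 (log2 fold change 2.21, edgeR adjusted p = 0.039). The lineage antibodies of the sort included one against CD41, the product of Itga2b, so the gate for Lin- cells was set to remove cells with that protein on their surface; the part of these genes in the step from S2 to S3 was not tested.

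The ratio of Malat1 to Neat1 counts within a library does not depend on the scaling. It was 78.4, 64.2 and 19.7 in S0-Low and between 61.5 and 76.3 in S0-Medium. The S1 libraries gave 33.3 to 65.5 and those of S2 30.5 to 44.5. In S3 it was 49.7, 20.4 and 16.6, a range that overlapped S0-Low, S1 and S2, and in Lin+ it was 12.8 in the middle library and at most 15.2, below every erythroid library. Per kilobase of the longest annotated transcript, which has 6982 bases for Malat1 and 20771 for Neat1, the level of Malat1 was 185 ± 39.0 CPM in S0-Low and 2253 ± 291 in S3. Neat1 stood at 1.57 ± 1.17 CPM per kilobase in S0-Low and 33.4 ± 18.9 in S3, and so below Malat1 in every population.

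With TMM scaling Gas5, a host of box C/D snoRNAs, had its highest mean in S2 and its lowest erythroid mean in S3, with wide overlap. Its normalized counts were 9178, 15966 and 5634 in S0-Low, 8305, 16994 and 13931 in S0-Medium, and 15032, 19984 and 6498 in S1. They were 17013, 20308 and 5448 in S2 and 5363, 10133 and 2780 in S3. All of these ranges overlapped. The mean was 10260 ± 5250 in S0-Low, 14256 ± 7804 in S2 and 6092 ± 3730 in S3 (SD, n = 3). With scaling by library totals the highest mean was that of S0-Medium, at 14724, against 13441 in S2. S3 against S0-Low gave a log2 fold change of -0.75 (SE 0.57, edgeR adjusted p = 0.308), and S3 against S2 gave -1.22 (SE 0.57, adjusted p = 0.186). With each library left out in turn these ran from -1.34 to -0.36 and from -1.81 to -0.89. In the step from S2 to S3, libraries of the same number deviated together, and with the replicate number as a block Gas5 was called lower in S3 (log2 fold change -1.24, SE 0.35, adjusted p = 0.0221; lower in 3 of 3 pairs). Scaling by library totals gave -1.55 in S3 against S0-Low with an adjusted p of 0.0459.

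Zbtb37, a zinc finger gene that Gas5 overlaps on the other strand, fell in both comparisons (log2 fold change -3.30, edgeR adjusted p = 0.00667, in S3 against S0-Low and -2.68, adjusted p = 0.0488, in S3 against S2). It held 20102 counts over the 18 libraries against 203827 for Gas5. Reads from the shared stretch cannot be told apart without the strand setting.

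Snhg12, which holds mainly box H/ACA snoRNAs, had the widest spread, with its highest S2 library 17.3-fold above its lowest. Its normalized counts were 1967, 3032 and 539 in S0-Low, 1777, 4278 and 1844 in S0-Medium, and 3143, 4308 and 985 in S1. In S2 they were 2529, 4033 and 233, and in S3 they were 979, 1107 and 86.4. The S3 range overlapped those of S0-Low, S1 and S2 and lay below that of S0-Medium. S3 against S0-Low gave a log2 fold change of -1.35 (SE 0.93, edgeR adjusted p = 0.267), and S3 against S2 gave -1.64 (SE 0.94, adjusted p = 0.276). With each library left out in turn these ran from -1.86 to -0.85 and from -2.19 to -0.94. Neither comparison passed the test, although Snhg12 was lower in S3 in 3 of 3 libraries of the same number in both. With the replicate number as a block, Snhg12 was called lower in S3 than in S0-Low (edgeR adjusted p = 0.0311), the 1 call among 14 alternatives. That fit called 4374 of 16555 genes lower.

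Mir17hg had its highest mean in S0-Low and its lowest in S3. Its normalized counts were 1987, 5370 and 4391 in S0-Low, 1886, 5571 and 3198 in S0-Medium, and 2413, 5109 and 2287 in S1. In S2 they were 2977, 3585 and 712, and in S3 they were 610, 1559 and 1921. The S3 libraries lay below all those of S0-Low and S1 and overlapped S0-Medium and S2. The means ran from 3916 ± 1741 in S0-Low over 2425 ± 1514 in S2 to 1363 ± 677 in S3 (SD, n = 3). S3 against S0-Low gave a log2 fold change of -1.52 (SE 0.61, unadjusted p = 0.0239, edgeR adjusted p = 0.0615), which did not pass the threshold. It was the 1 member lower at an unadjusted p under 0.05, where 5041 of 16555 tested genes were, and DESeq2 called it (-1.65, adjusted p = 0.0346). Over 14 alternatives the adjusted p ran from 0.00572 to 0.173 and was under 0.05 in 8.

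**Figure D2:**
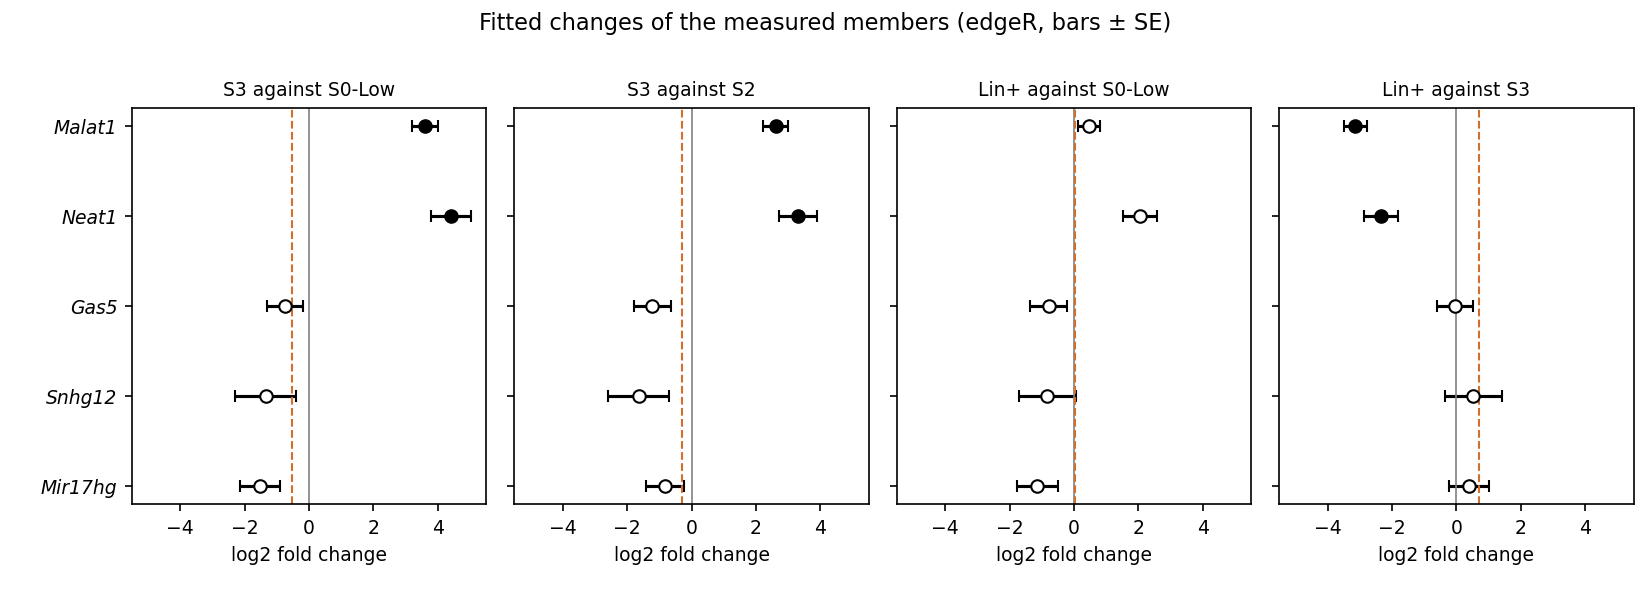
Fitted log2 fold changes of the 5 measured genes in 4 comparisons, with bars of 1 SE. Filled points have an edgeR adjusted p under 0.05, open points do not, and the dashed line is the median of all tested genes; Malat1 and Neat1 are filled and higher in both S3 comparisons and filled and lower in Lin+ against S3.

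The spread between libraries of the host genes followed the replicate number. Gas5 and Snhg12 were highest in replicate 2 in 6 of 6 populations, and lowest in replicate 3 in 5 of 6. Replicate 3 of Snhg12 lay below its population's mean on the log2 scale in all 6, by 0.39 to 2.52 (median -1.36). Mir17hg was highest in replicate 2 in 5 of 6 populations and lowest in replicate 1 in 4. Neat1 went another way and was highest in replicate 3 in 5 of 6 populations and lowest in replicate 2 in 4. What the numbers stand for is not in the labels.

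**Figure D3:**
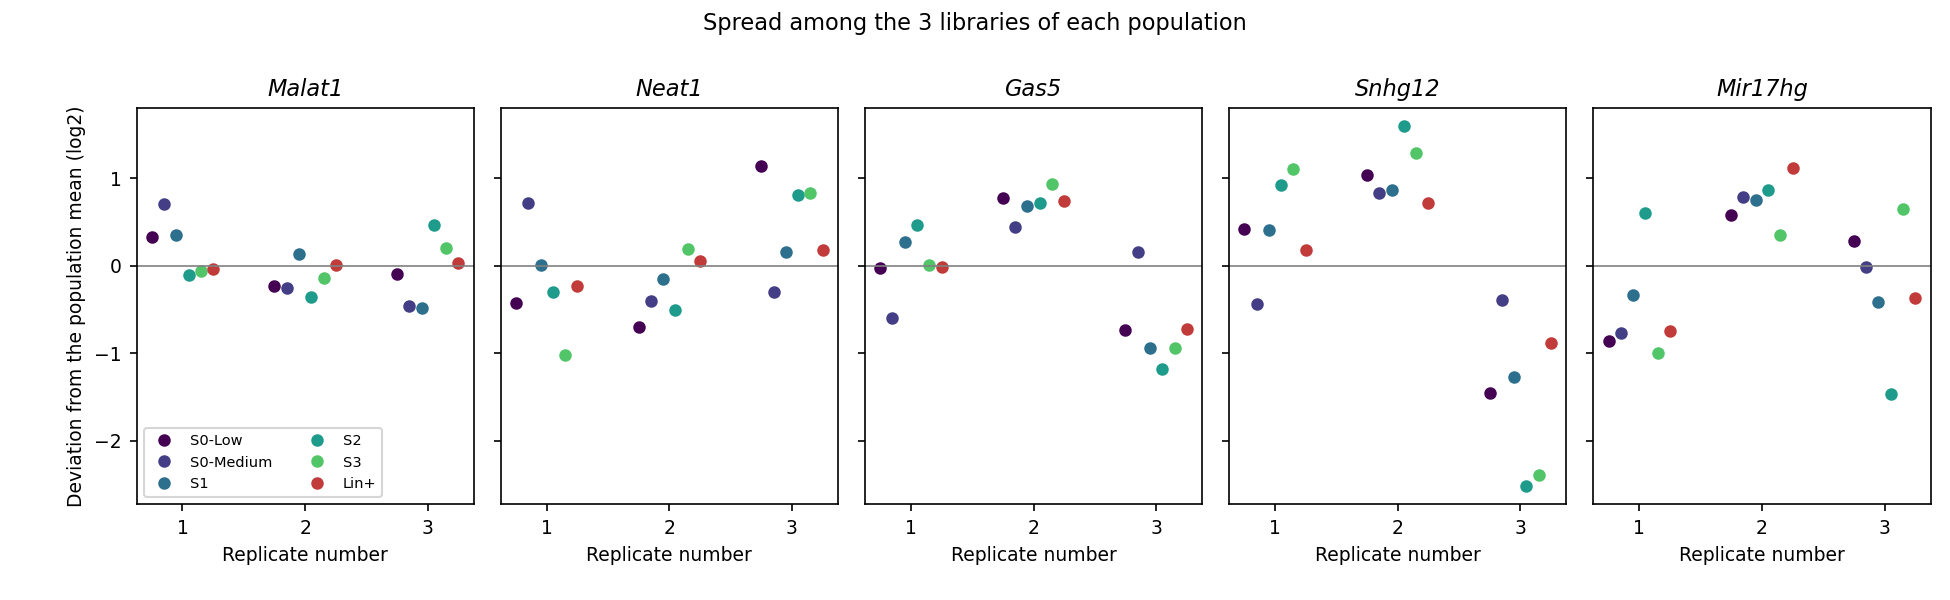
Deviation of each library from its population's mean log2 normalized count, for the 5 measured genes by replicate number. Colours are populations and numbers have no order; for Gas5 and Snhg12 all 6 points of replicate 2 lie above 0.

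The same pairing of genes stood in the correlations of log2 levels, given as a description over libraries that share scaling. Gas5 and Snhg12 had a Pearson r of 0.930 over the 15 erythroid libraries, and 0.930 after each population's mean was removed. Malat1 and Neat1 had 0.944 over the 15 libraries and 0.441 within populations, a likeness that lay mostly between populations. Neat1 and Snhg12 ran in opposite directions within populations, with -0.796. The ratio of Gas5 to Snhg12 counts was between 3.97 and 7.56 in S0-Medium and between 4.64 and 6.60 in S1, but reached 10.4 in S0-Low, 23.3 in S2 and 32.2 in S3, each time in replicate 3.

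Among 10203 genes with a symbol and a mean of at least 100 normalized counts, the patterns most like each member over the 15 libraries were as follows. Malat1 ran closest to Kif2a, a kinesin that depolymerizes microtubules (r = 0.983), D5Ertd579e (0.982) and Xpo7, a nuclear exportin (0.980). Neat1 ran closest to Ogt, the transferase that adds N-acetylglucosamine to nuclear proteins (0.984), the kinase gene Hipk1 (0.982) and Wdr44 (0.978). For Gas5 the closest were the cytosolic ribosomal protein genes Rpl3, Rps15a and Rpl38 (0.964, 0.955 and 0.955), and with a pseudocount of 2 CPM in place of 0.5 the second was 1500012F01Rik, the table's name for Zfas1. Snhg12 ran closest to Nt5dc2 (0.969), Pus1, a pseudouridine synthase (0.969), and Gnl3, a nucleolar GTPase (0.968). For Mir17hg the values were lower, with Zfp35 at 0.915, Wdr73 at 0.913 and Gm13680 at 0.908. These are the highest of many values and carry no test.

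Lin+ cells had Malat1 near the level of the early erythroid populations. The normalized counts were 55681, 57596 and 58503, above those of all S0-Low libraries, and the log2 fold change against S0-Low was 0.47 (SE 0.33, edgeR adjusted p = 0.813). Neat1 stood at 3675, 4490 and 4863 in Lin+, above every S0-Low, S0-Medium, S1 and S2 library and below every S3 library. Against S0-Low its log2 fold change was 2.06 (SE 0.53, unadjusted p = 0.00104), with an edgeR adjusted p of 0.082 in a comparison that called 0.496% of 17755 genes higher and 0.22% lower (0.715% in either direction). Neat1 was the 1 member with an unadjusted p under 0.05 there, where 1223 of 17755 genes were higher and 525 lower. DESeq2 called Neat1 (2.07, adjusted p = 0.0221). Without replicate 3 of S0-Low, the library with the high normalized Neat1 count, the value was 2.86 with an adjusted p of 0.0319.

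Against S3, both nuclear RNAs fell in Lin+. Malat1 had a log2 fold change of -3.14 (SE 0.36, edgeR adjusted p = 4.13e-06) and Neat1 of -2.36 (SE 0.53, adjusted p = 0.00197), lower in 3 of 3 libraries of the same number. With scaling by library totals they stood at -2.33 and -1.49 and were still called. These 2 members were called in a comparison that called 14.1% of tested genes lower and 28.2% higher (42.2% in either direction). It shares its S3 libraries with those above. Gas5 in Lin+ held 5420, 9098 and 3297 normalized counts, Snhg12 1071, 1550 and 512, and Mir17hg 899, 3280 and 1172, each overlapping S3. Their log2 fold changes against S3 were -0.04, 0.53 and 0.39, with adjusted p between 0.646 and 0.967.

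Some other snoRNA hosts fell in S3. Of 14 listed, 8 were tested, and 3 were called lower in S3 than in S0-Low, 6 at an unadjusted p under 0.05, none higher by edgeR or DESeq2 or at an unadjusted p under 0.05, where 22.4% of all tested genes were called lower. At an unadjusted p under 0.05, 5041 of all 16555 tested genes were lower. DESeq2 called 5 lower, where it called 5030 of 16710 genes lower, and scaling by library totals 7, where it called 6228 of 16555 genes lower. The median log2 fold change of the 8 was -2.55 against -0.54 for all genes (also -2.55 with Snhg11, at 0 in S3, set at its bound), and all 8 values were below 0. Snhg17 fell from 1968 ± 879 normalized counts in S0-Low to 212 ± 168 in S3 (log2 fold change -3.22, SE 0.78, edgeR adjusted p = 0.00544), and Snhg20 from 1858 ± 148 to 263 ± 73.9 (-2.82, SE 0.46, adjusted p = 0.000318). Snhg9 held 16, 58 and 10 counts in S0-Low and 1 count over the 3 S3 libraries (adjusted p = 0.0488), a fitted change that rests on the prior count. Zfas1, which like Gas5 has introns with box C/D snoRNAs, stood at -0.82 (SE 0.52, adjusted p = 0.228).

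Of 12 genes for snoRNP proteins, which bind snoRNAs or build the particles, all had values below 0, with a median of -1.68, and 5 were called lower, beside the same 22.4% of all genes: Gar1, a box H/ACA core protein (-2.98, adjusted p = 0.043), Fbl, the methyltransferase of box C/D particles (-2.44, adjusted p = 0.0265), the assembly factors Ruvbl2 (-2.14) and Ruvbl1 (-1.59), and Nufip1 (-1.77). No gene of the list was called higher by edgeR or DESeq2 or had an unadjusted p under 0.05 in that direction. The count called was 2 without replicate 1 or 3 of S3, 3 without replicate 1 or 2 of S0-Low, and 11 with scaling by library totals, which called 6228 of 16555 genes lower. In S3 against S2, where 6.09% of all tested genes were called lower, so were 2 of the 8 hosts (0 to 5 under the alternatives) and 1 of the 12 protein genes (0 to 9). At an unadjusted p under 0.05, 6 of the hosts and 8 of the protein genes were lower, as were 2894 of all 16555 tested genes. With the replicate number as a block, which raised the lower calls over all 16555 genes from 1008 to 1866, 3 of the hosts and 8 of the protein genes were called. All 12 protein genes had values below 0 in this step, with a median of -1.58 against -0.31 for all genes.

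**Figure D4:**
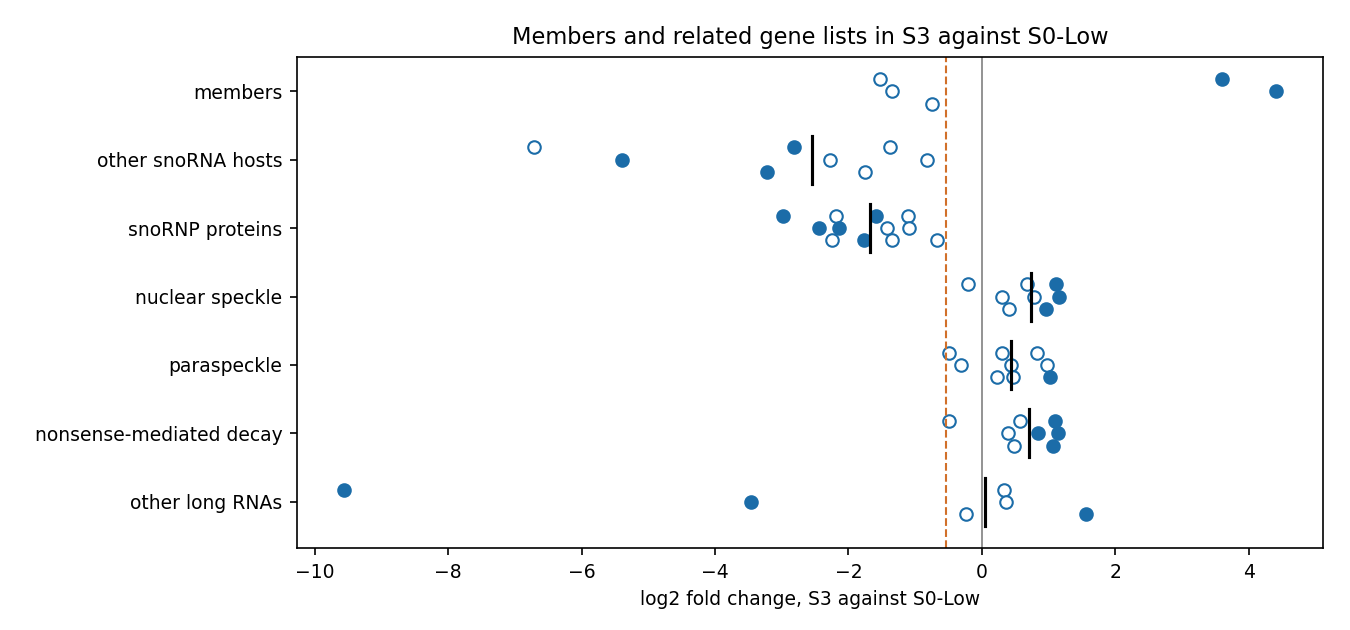
Log2 fold changes in S3 against S0-Low of the 5 measured members and of the genes of 6 related lists. Filled points have an edgeR adjusted p under 0.05, short bars are list medians and the dashed line is the median of all tested genes; every tested snoRNA host other than the members and every snoRNP protein gene lies left of 0.

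The protein genes of the bodies that Malat1 and Neat1 mark changed less than the RNAs. Of 8 nuclear speckle genes, 3 rose in S3 against S0-Low, where 13.4% of all tested genes were called higher: Srrm1 (1.16, SE 0.28, edgeR adjusted p = 0.00588), Srsf1 (1.10, adjusted p = 0.0108) and Srsf3 (0.97, adjusted p = 0.0237). The list median was 0.73, and with scaling by library totals none of the 8 was called higher and 1 was called lower; none was called with only the 6 libraries compared. Of 9 tested paraspeckle genes, Nudt21, which encodes a cleavage factor subunit, rose (1.01, SE 0.37, adjusted p = 0.0426) and lost its call under 9 of 14 alternatives. DESeq2 called no gene of this list higher and 1 lower, and Nono stood at -0.32 (SE 0.31, adjusted p = 0.439) and Sfpq at 0.43 (SE 0.25, adjusted p = 0.18). Rbm14 was listed at 0.

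Of 8 nonsense-mediated decay genes, 4 rose, where 13.4% of all tested genes were called higher, and the list median was 0.71 against -0.54 for all genes: Upf1, the helicase of the pathway (1.15, SE 0.32, edgeR adjusted p = 0.0128), Upf3b, Smg5 and Upf2. None was called higher with scaling by library totals or with only the 6 libraries compared, and the count was 0 without replicate 3 of S3. Of 6 other tested long noncoding RNA genes, Oip5os1 rose from 5626 ± 1704 to 16574 ± 5489 normalized counts (1.56, SE 0.42, adjusted p = 0.00967). Firre fell (-3.47, SE 1.03, adjusted p = 0.0171), and Meg3, at 99.5 ± 78.8 in S0-Low, was at 0 in every S3 library, at least 52.3-fold lower when 3 counts over the group are taken as the floor. Tug1 stood at -0.24 (SE 0.33, adjusted p = 0.585).

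The small RNAs inside the hosts had no counts. Gas5 holds 9 annotated snoRNA genes on its strand, Snhg12 holds 4 and Snhg3 holds 2, and Mir17hg holds 6 miRNA genes. All 21 had rows in the table and were listed at 0 in every library. Snhg3 was listed at 0 as well, and in the same annotation it lies within reach of Rcc1 on the same strand, which held 62414 counts. The amounts of the small RNAs themselves were not measured in this table.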

How the data were processed

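Nascent, 4sU-labelled RNA of 18 libraries (6 populations, 3 replicates each) was analysed. The authors made the deposited gene counts with Kallisto 0.43.0 on GRCm38, according to the submitters' processing notes; the transcript set and strand setting are not given in the sources used here, nor is whether intron reads were counted. The values were tested as deposited, as whole counts. Genes were kept with filterByExpr and scaled with TMM factors in edgeR 4.0.16 (limma 3.58.1, R 4.3.3), and populations were compared with the quasi-likelihood test and Benjamini-Hochberg adjustment over all tested genes, calling an adjusted p under 0.05. The steps between erythroid populations and S3 against S0-Low came from a fit of the 15 erythroid libraries (16555 genes), and Lin+ against S0-Low or S3 from a fit of all 18 (17755 genes). Means, ranges and ratios used Python 3.11.15 with pandas 2.3.3, numpy 2.4.6 and scipy 1.17.1, and plots matplotlib 3.10.9. Sequences and positions came from RefSeq GRCm38.p6, and strand overlaps, transcript lengths and hosted small RNAs from an older GENCODE release of another build, without its coordinates.

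Alternatives were DESeq2 1.42.0, RLE factors, library totals, no filter, at least 10 counts in every library compared, a replicate block, globin genes left out of scaling, only the 6 libraries compared, and leaving out each library in turn. Patterns were compared on log2(CPM + 0.5), with a pseudocount of 2 as the alternative. The members and lists were chosen with earlier results of these data known. All members were named, and from each list the called genes with the largest rise and fall in S3 against S0-Low or, with none called, the gene with the highest mean; further genes of the lists, and Zbtb37, were named after their values were seen. Libraries sharing a replicate number deviated together from their population means in each of the 4 erythroid steps, with correlations over genes of 0.111 to 0.408, and in S3 against S2 of 0.111, 0.211 and 0.214. The correlations ran from 0.0352 to 0.0956 in S3 against S0-Low and from 0.0755 to 0.138 in the Lin+ comparisons, with no sharp line between these and the erythroid steps. Replicates differed by more than sampling noise, with a chi-square per degree of freedom of 79.3 to 475. A floor of 3 counts stood at 0.074 to 0.317 CPM, and floors cover counting error only. On simulated counts for S3 against S0-Low over 16656 genes, the test recovered 0% of 2-fold, 12.1% of 4-fold and 50.8% of 16-fold changes. There 79, 58 and 63 genes were changed at these folds, far fewer than the 5932 called in the data. The adjustment over all genes depends on that number, so these shares do not carry over to the data.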

Additional observations from a re-analysis of the deposited data

How the results depend on the processing

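In S3 against S0-Low, Malat1 (log2 fold change 2.76 to 3.72) and Neat1 (3.47 to 5.17) were called under all 14 alternatives, and in Lin+ against S3 both were called under all 14. In S3 against S2 Neat1 was called under 14 and Malat1 under 13. The number of members called in S3 against S0-Low was 2, 4 with library totals and with the replicate block, 3 under 6 other alternatives and 2 under the remaining 6. In S3 against S2 it was 2, 3 with the replicate block (Gas5 added, in a step with pairing correlations of 0.111 to 0.214), 4 with no filter and 1 with only the 6 libraries compared. In Lin+ against S0-Low it was 0, 1 with DESeq2, no filter and the replicate block, and between 0 and 1 when each library was left out in turn.

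With the replicate block in S3 against S0-Low, Snhg12 stood at -1.56 (edgeR adjusted p = 0.0311) and Mir17hg at -1.48 (adjusted p = 0.027). Over all genes the numbers paired these libraries only weakly, with correlations of 0.0352 to 0.0956. For Snhg12 the log2 deviations of replicates 1 to 3 were 0.41, 1.04 and -1.45 in S0-Low and 1.11, 1.29 and -2.39 in S3. The value of Gas5 in Lin+ against S3, -0.04, turned to 0.18 with DESeq2 and with RLE factors, 0.72 with library totals, 0.038 with no filter, 0.35 with at least 10 counts, 0.023 with the replicate block and 0.20 with only the 6 libraries compared, and ran from -0.47 to 0.59 when each library was left out. That of Mir17hg, 0.39, ran from -0.38 (without replicate 2 of Lin+) to 0.74 when each library was left out, and was 1.26 with library totals. With library totals the mean of Malat1 was 322594 in S3 and 64258 in Lin+. With a pseudocount of 2 the gene most like Snhg12 was Nop2. The highest value of Neat1 above, 5.17, came without replicate 3 of S0-Low. The cause of these changes was not tested. A member without a call is not shown to be unchanged. Fold changes of 4 or less were mostly missed on simulated counts, but few genes were changed there, so that share does not carry over to the data.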
